A study of Mus musculus with 9 samples.

Results

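The genes described here are Gpnmb, Ccn4, Cyp26b1, Scml2 and Tmem173, 5 of the 22396 genes listed in the counts, and they were chosen by the difference of their CPM, which is counts scaled to the same total in each library, between cells with shOSGEP#2 and cells with shOSGEP#1. That difference is therefore described below, and no p-value is given for it. The counts come from an RNA immunoprecipitation of FLAG-tagged RIG-I, an innate sensor of RNA, followed by sequencing of the RNA recovered with it. The cells were B16F10, a mouse melanoma line, made to express FLAG-tagged RIG-I stably together with a control shRNA (shCtr) or with 1 of the shRNAs shOSGEP#1 and shOSGEP#2, both directed against Osgep. OSGEP carries the enzymatic activity of KEOPS, a complex needed for the t6A modification of tRNAs. Each of the 3 groups had 3 replicates, which makes 9 libraries. The study states that the replicates come from independent experiments, and that 3 separate transductions were made for all of its experiments. All groups carried the tagged bait. A level here is a proportion of what was pulled down with the bait, so that less of an mRNA in the cells and less of it bound to the bait cannot be told apart, nor can fewer cells making it and less RNA per cell.

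The 5 genes have unrelated roles. Gpnmb encodes a transmembrane glycoprotein of melanosomes and lysosomes that is transcribed under MITF and the related factors TFEB and TFE3, and it is abundant in pigment cells. Ccn4, formerly Wisp1, encodes a secreted matricellular protein of the CCN family and is a target of WNT and β-catenin signalling. Cyp26b1 encodes a cytochrome P450 enzyme that breaks down retinoic acid, and retinoic acid itself is known to induce the gene. Scml2 encodes a Polycomb group protein related to the fly gene Sex comb on midleg. Tmem173, now called Sting1, encodes STING, the adaptor that carries the signal of the DNA sensor cGAS to TBK1 and IRF3.

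Total counts were 40333037, 47750758 and 41805753 in the shCtr libraries 1 to 3, 34551436, 50224299 and 30697653 in those of shOSGEP#1, and 25460689, 568995 and 14914731 in those of shOSGEP#2. Replicate 2 of shOSGEP#2 stood apart, with 4196 genes detected against 11733 to 13958 in the other libraries and 13.8% of its counts on its 10 most abundant genes against 5.10% to 6.26%. Its floor of 3 counts corresponds to 5.27 CPM. Its values are given apart, and the tests used the other 8 libraries unless stated. The share of mitochondrially encoded genes was 2.96% in shOSGEP#1 replicate 3 and 0.147% to 0.445% in the other libraries of the fit.

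Osgep, the targeted gene (ENSMUSG00000006289), was at 19.1, 19.9 and 15.5 CPM in the shCtr libraries. In those of shOSGEP#1 it was at 3.76, 1.15 and 1.53 CPM, and in replicates 1 and 3 of shOSGEP#2 at 0.0786 CPM (2 counts) and 2.88 CPM (43 counts). Every library of the fit with an Osgep shRNA lay below every shCtr library, and the shRNA groups overlapped each other. The mean of both shRNAs against shCtr was -3.47 ± 0.64 on the log2 scale (SE; edgeR quasi-likelihood test, Benjamini-Hochberg adjusted p = 0.00406), with 5 of 5 libraries below the shCtr mean. Taken singly, shOSGEP#1 was at -3.10 ± 0.73 (edgeR adjusted p = 0.0128) and shOSGEP#2 at -3.84 ± 0.93 (edgeR adjusted p = 0.0150), which misses the threshold of 0.01. Over the alternatives the adjusted p of Osgep ran from 0.000639 to 1.00 with shOSGEP#1 and from 0.000838 to 0.719 with shOSGEP#2. A fit without replicate 1 or 3 of shOSGEP#2 leaves 1 library in that group, so only sizes are given for it. Without replicate 3, Osgep with shOSGEP#2 was at -7.86, which rests on the 2 counts of replicate 1, and without replicate 1 at -2.78. With shOSGEP#1 Osgep was at -3.11 in both of these fits. The difference between the shRNAs in Osgep was -0.74 ± 0.87 (edgeR adjusted p = 0.568). Replicate 2 of shOSGEP#2 had 0 Osgep counts, which does not place it below the shCtr libraries, since 82.0% of the 1984 tested genes within a factor of 1.5 of 17.9 CPM in replicates 1 and 3 were also at 0 there. Ddx58, which encodes RIG-I, was at 180, 184 and 278 CPM with shCtr, at 232, 216 and 327 CPM with shOSGEP#1, and at 402 and 429 CPM in replicates 1 and 3 of shOSGEP#2. These shOSGEP#2 libraries were the highest, while the shallow replicate 2 had 0 counts where their mean would give 236, as had 16.8% of the 500 tested genes within a factor of 1.5 of that level. In the fit of 8 libraries the difference from shOSGEP#1 was 0.60 ± 0.23 (edgeR adjusted p = 0.0849), and counts of this gene do not separate the tagged construct from the endogenous mRNA.

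The shRNAs address different places of the Osgep mRNA. Each is listed by the study with 41 bases, and the middle 21 of these are printed in capitals, with 4 bases on either side in lower case, to show where each shRNA addresses the mRNA. Which of the 41 bases form the hairpin is not given in the sources used here, so the capitals and the places below are those of the middle of the listed run and not of a known hairpin.
OSGEP#1: aaacCCAACATGACGCCACAATAAAaatt
OSGEP#2: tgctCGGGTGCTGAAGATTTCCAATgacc
Matched to GENCODE M21 transcripts, on the mouse build GRCm38, the middle bases of OSGEP#1 lie at chr14:50915705-50915725 on the minus strand, in exon 11 and the 3′ UTR of the protein-coding transcript Osgep-202. Those of OSGEP#2 lie in its coding sequence, across the junction of exons 4 and 5, between chr14:50917495 and chr14:50917847. The listed 41 bases were found whole in 4 of the 8 annotated Osgep transcripts for OSGEP#1 and in 7 of the 8 for OSGEP#2.

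Gpnmb (ENSMUSG00000029816) was at 2543, 2027 and 2229 CPM in the shCtr libraries, at 4170, 5997 and 5546 CPM in those of shOSGEP#1, and at 1100 and 1236 CPM in replicates 1 and 3 of shOSGEP#2. The groups did not overlap, with shOSGEP#1 above and shOSGEP#2 below every shCtr library. Group means were 2266 ± 260 CPM with shCtr (SD, n = 3), 5238 ± 952 CPM with shOSGEP#1 (SD, n = 3) and 1168 ± 96.6 CPM with shOSGEP#2 (SD, n = 2). On the log2 scale the fitted change against shCtr was 1.20 ± 0.17 (SE) with shOSGEP#1 and -1.05 ± 0.19 with shOSGEP#2, and shOSGEP#2 minus shOSGEP#1 was -2.25 ± 0.20. The melanosomal glycoprotein was thus the one gene of the 5 that was highest with shOSGEP#1 and lowest with shOSGEP#2 with a distance of more than 1 log2 unit to shCtr on either side. The shallow replicate 2 of shOSGEP#2 held 482 counts of it, or 847 CPM (95% exact binomial interval 773 to 926), below every other library. Intervals of this kind, and floors, cover counting error only. The Gpnmb count there was 0.725 times that expected from the mean of replicates 1 and 3. For the 68 tested genes within a factor of 1.5 of that mean, the median was 0.552 times. Low values were thus common at this level in that library.

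Ccn4 (ENSMUSG00000005124) was at 26.1, 34.3 and 47.2 CPM with shCtr and at 19.9, 23.1 and 17.0 CPM with shOSGEP#1. In replicates 1 and 3 of shOSGEP#2 it was at 434 and 367 CPM. The order was the reverse of that of Gpnmb, with shOSGEP#2 far above both other groups and shOSGEP#1 just below shCtr, again with no overlap. The means were 35.9 ± 10.6 CPM (SD, n = 3) for shCtr, 20.01 ± 3.05 CPM (SD, n = 3) for shOSGEP#1 and 400.3 ± 47.3 CPM (SD, n = 2) for shOSGEP#2. The lowest shCtr library and the highest shOSGEP#1 library were 26.1 and 23.1 CPM, closer to each other than the shCtr libraries were among themselves. The fitted log2 change was -0.85 ± 0.22 with shOSGEP#1 and 3.39 ± 0.24 with shOSGEP#2, a difference of 4.24 ± 0.25 between the shRNAs. For this secreted CCN protein the shallow library gave 228 counts, or 401 CPM (95% exact binomial interval 350.4 to 456), between the other libraries of its group.

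Cyp26b1 (ENSMUSG00000063415) followed the same order at a lower level. It was at 4.93, 4.75 and 8.49 CPM in the shCtr libraries, at 2.81, 2.11 and 3.29 CPM in those of shOSGEP#1, and at 117 and 82.4 CPM in replicates 1 and 3 of shOSGEP#2. All shOSGEP#1 libraries lay below, and all shOSGEP#2 libraries above, every shCtr library. Group means were 6.06 ± 2.11 CPM with shCtr (SD, n = 3), 2.74 ± 0.593 CPM with shOSGEP#1 (SD, n = 3) and 99.5 ± 24.2 CPM with shOSGEP#2 (SD, n = 2). The low values still rested on 97 to 355 counts a library. The fitted log2 change was -1.17 ± 0.28 with shOSGEP#1 and 3.95 ± 0.31 with shOSGEP#2, and shOSGEP#2 minus shOSGEP#1 was 5.12 ± 0.33, the largest difference of the 5 genes. The retinoic acid hydroxylase had 91 counts in the shallow library, or 160 CPM (95% exact binomial interval 129 to 196), above every other library.

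Scml2 (ENSMUSG00000000037) was at 7.17, 8.25 and 10.4 CPM with shCtr, at 8.74, 9.92 and 4.30 CPM with shOSGEP#1, and at 12.6 and 23.2 CPM in replicates 1 and 3 of shOSGEP#2. The shCtr and shOSGEP#1 libraries overlapped, and only the shOSGEP#2 libraries stood clear of them, apart from each other by more than the lower of them stood from shCtr. The means were 8.60 ± 1.64 CPM with shCtr (SD, n = 3), 7.65 ± 2.96 CPM with shOSGEP#1 (SD, n = 3) and 17.9 ± 7.46 CPM with shOSGEP#2 (SD, n = 2). The fitted log2 change was -0.18 ± 0.34 with shOSGEP#1 and 0.95 ± 0.37 with shOSGEP#2, and the difference between the shRNAs was 1.13 ± 0.37. It depended on single libraries, at 0.67 without shOSGEP#2 replicate 3 and 1.48 without shOSGEP#2 replicate 1. The shallow library gave this Polycomb gene 59 counts, or 104 CPM (95% exact binomial interval 78.9 to 134), 5.79 times the count that the mean of replicates 1 and 3 would give at its depth. With that library in the fit the difference between the shRNAs was 2.07 ± 0.71.

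Tmem173 (ENSMUSG00000024349) was at 42.4, 37.7 and 43.2 CPM with shCtr, at 41.4, 49.0 and 46.6 CPM with shOSGEP#1, and at 31.5 and 35.8 CPM in replicates 1 and 3 of shOSGEP#2. The shCtr and shOSGEP#1 libraries overlapped, and the shOSGEP#2 libraries lay below both, with the smallest log2 difference of the 5 genes between the shRNAs. Group means were 41.1 ± 2.94 CPM (SD, n = 3), 45.7 ± 3.89 CPM (SD, n = 3) and 33.6 ± 3.07 CPM (SD, n = 2) in the same order. The fitted log2 change was 0.14 ± 0.15 with shOSGEP#1 and -0.39 ± 0.17 with shOSGEP#2, and the difference between the shRNAs was -0.53 ± 0.17. The STING mRNA had 0 counts in the shallow library, where the mean of replicates 1 and 3 would give 19.1. Such a 0 was common there, since 71.6% of the 2680 tested genes within a factor of 1.5 of the same level were at 0 in that library, as were 82.0% of the 1984 at the level of Scml2, 44.6% of the 2408 at the level of Cyp26b1 and 17.2% of the 528 at the level of Ccn4. With the shallow library in the fit, Tmem173 differed by -1.04 ± 0.98 between the shRNAs, a standard error close to the value itself.

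**Figure D1:**
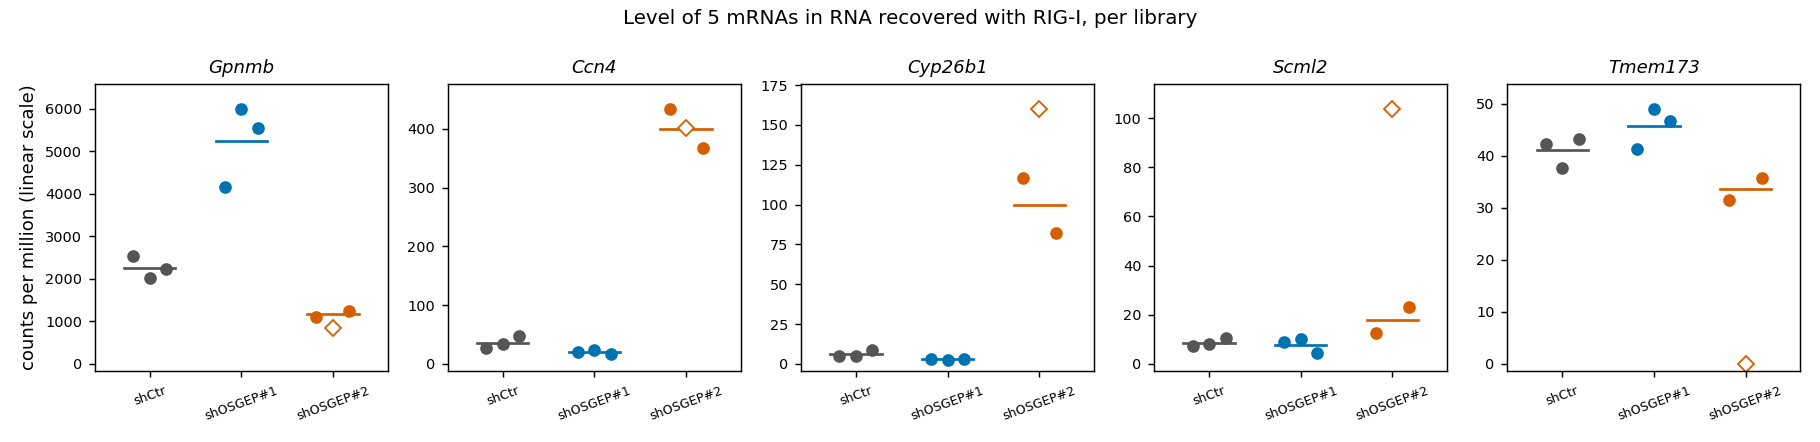
Level of Gpnmb, Ccn4, Cyp26b1, Scml2 and Tmem173 in RNA recovered with RIG-I, in CPM on a linear axis from 0, by shRNA group. Filled circles are libraries of the fit, lines their group means, and open diamonds the shallow replicate 2 of shOSGEP#2.

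Between the shRNAs, 10.8% of the 12744 genes tested passed an adjusted p of 0.01. The 5 genes were chosen by this contrast, and no call is given for them in it. The shOSGEP#1 and shOSGEP#2 libraries did not overlap for 5 of the 5 genes and for 49.6% of all tested genes. For Gpnmb, Ccn4 and Cyp26b1 they lay on opposite sides of the shCtr range, which holds for 6.36% of all tested genes. All 5 passed the filter on low counts. The comparisons of each shRNA with shCtr share the shCtr libraries.

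Compared per kilobase of annotated exon, the shCtr means ran from 348 CPM per kb for Gpnmb over 15.0 for Tmem173 and 6.45 for Ccn4 to 1.41 for Scml2 and 1.13 for Cyp26b1. Gpnmb is by this measure the abundant mRNA of the 5 in every group. With shOSGEP#2 the order was 179 CPM per kb for Gpnmb, 71.9 for Ccn4, 18.6 for Cyp26b1, 12.3 for Tmem173 and 2.95 for Scml2, so that Ccn4 and Cyp26b1 had moved ahead of Tmem173. With shOSGEP#1 the levels were 804, 16.7, 3.60, 1.26 and 0.511 CPM per kb for Gpnmb, Tmem173, Ccn4, Scml2 and Cyp26b1. Lengths are of all exons in GENCODE M21, from 2741 bases for Tmem173 to 6514 for Gpnmb.

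A contrast other than the one that chose the genes is the mean of both shRNAs against shCtr. With both shRNAs weighted equally, Ccn4 was at 1.27 ± 0.20 on the log2 scale (SE; edgeR adjusted p = 0.00198) and Cyp26b1 at 1.39 ± 0.25 (edgeR adjusted p = 0.00383), 2 of the 5 genes, beside 9.31% of all tested genes. In each, 2 of the 5 shOSGEP libraries of the fit lay above the shCtr mean and 3 below it, so this mean describes neither shRNA. Gpnmb was at 0.07 ± 0.15 (edgeR adjusted p = 0.767), a mean of opposite changes. Scml2 was at 0.39 ± 0.31 (edgeR adjusted p = 0.408) and Tmem173 at -0.12 ± 0.13 (edgeR adjusted p = 0.553). With 3 and 2 libraries the equally weighted mean is not independent of the difference between the shRNAs. Weighting by the number of libraries reduces that dependence and need not remove it, since the libraries differ in depth. So weighted, Ccn4 was at 0.84 ± 0.20 (edgeR adjusted p = 0.0122) and Cyp26b1 at 0.88 ± 0.25 (edgeR adjusted p = 0.0294). In this contrast 0 of the 5 genes passed, beside 9.23% of all tested genes. At an unadjusted edgeR p under 0.05 were 2 of the 5, beside 34.8% of all tested genes. Over the alternatives to the equally weighted mean, the adjusted p of Ccn4 ran from 1.40e-08 (DESeq2) to 0.987 (edgeR with replicate block and all 9 libraries) and that of Cyp26b1 from 1.60e-06 to 0.987 in the same fits. Without shCtr replicate 2, Ccn4 was at 1.23 (edgeR adjusted p = 0.0162) and Cyp26b1 at 1.24 (edgeR adjusted p = 0.0283), and without shCtr replicate 1 Cyp26b1 was at 1.26 (edgeR adjusted p = 0.0251). With the shallow library added, Ccn4 was at 1.18 ± 0.33 (edgeR adjusted p = 0.518) and Cyp26b1 at 1.40 ± 0.42 (edgeR adjusted p = 0.540). In DESeq2 with all 9 libraries, Ccn4 was at 1.18 (DESeq2 adjusted p = 0.00791) and Cyp26b1 at 1.42 (DESeq2 adjusted p = 0.00501), a fit chosen after seeing the data.

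By Pearson correlation of log2(CPM + 1) over the 8 libraries, Ccn4 and Cyp26b1 were near each other, with r = 0.990. The 8 libraries fall into 3 groups, so r mainly follows the group levels and is given as a description. The other genes most like Ccn4 were Notch3 (r = 0.987), a Notch receptor, and Olig3 (r = 0.987), a bHLH transcription factor. Olig3 had means of 0.570 CPM with shCtr, 0.0675 CPM with shOSGEP#1 and 7.14 CPM with shOSGEP#2, so it met the limit of a mean of 1 CPM only through the group where it was high. Most like Cyp26b1 was Hunk (r = 0.994), a kinase, which differed less, from a mean of 30.8 CPM with shCtr and 27.9 CPM with shOSGEP#1 to 44.6 CPM with shOSGEP#2. Notch3 was also near it, at r = 0.990, with means of 1.52, 0.642 and 12.1 CPM in the same order. Nearest to Gpnmb were Cdhr4 (r = 0.988), Gstk1 (r = 0.985) and Il10rb (r = 0.983), the last of them a cytokine receptor chain at 53.6, 143 and 20.2 CPM. Nearest to Scml2 were Fhod1 (r = 0.990), Saysd1 (r = 0.983) and Vangl2 (r = 0.981), and nearest to Tmem173 were Zfp870 (r = 0.983), Sort1 (r = 0.968) and Dctn6 (r = 0.952). Of 11362 genes compared, r exceeded 0.95 for 107 with Ccn4, 84 with Cyp26b1, 52 with Gpnmb, 9 with Scml2 and 3 with Tmem173.

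Genes around each of the 5 were then compared between the shRNAs, leaving the 5 themselves out. In this contrast, 6.23% of all tested genes were higher and 4.56% lower with shOSGEP#2 than with shOSGEP#1 at an adjusted p under 0.01, and the median log2 difference was -0.04. Of the genes for synthesis, transport, reception and breakdown of retinoic acid, 14 of 22 were tested, 1 was higher and 4 were lower with shOSGEP#2, with a median of -0.45. Aldh1a3, which makes retinoic acid, was at 5.38, 3.73 and 7.46 CPM with shCtr, at 11.7, 12.1 and 18.8 CPM with shOSGEP#1 and at 1.89 and 1.21 CPM with shOSGEP#2. It fell by 3.25 ± 0.45 between the shRNAs on the log2 scale (edgeR adjusted p = 0.00064). Dhrs3, a retinaldehyde reductase that retinoic acid is known to induce, was at 58.2, 52.9 and 39.3 CPM, at 142, 187 and 156 CPM, and at 4.44 and 25.2 CPM in the same order, and fell by 3.57 ± 0.55 (edgeR adjusted p = 0.00115). Both genes thus had the group order of Gpnmb, with no overlap between groups. Rarb, a retinoic acid receptor whose gene retinoic acid also induces, was at 26.1, 28.7 and 20.3 CPM with shCtr, at 32.8, 35.4 and 18.05 CPM with shOSGEP#1 and at 1.92 and 4.49 CPM with shOSGEP#2, and fell by 3.29 ± 0.41 (edgeR adjusted p = 0.000401). Cyp26b1, known as a retinoic acid induced gene as well, was high where these were low. It was chosen by its difference between the shRNAs, and a link between these levels was not tested. The receptor gene Rarg was higher by 0.75 ± 0.16 (edgeR adjusted p = 0.00744) and Rxrb lower, at -0.82 ± 0.18 (edgeR adjusted p = 0.00858). Aldh1a3, Dhrs3 and Rarb passed without each shCtr or shOSGEP#1 library in turn. The size depended on single libraries, with Dhrs3 at -5.23 without shOSGEP#2 replicate 3 and -2.79 without shOSGEP#2 replicate 1. Rarb was at -3.95 without shOSGEP#2 replicate 3. Rarg missed the threshold whichever shCtr or shOSGEP#1 library was left out, and with a replicate block. Rxrb missed it whichever shCtr library was left out, and without shOSGEP#1 replicate 1 or replicate 2. Without shOSGEP#2 replicate 1, which leaves 1 library in that group, Rarg was at 0.96 and Rxrb at -1.02. Without shOSGEP#2 replicate 3 they were at 0.51 and -0.64. Of the enzymes of the same family, Cyp26a1 was at most at 0.353 CPM in any library and Cyp26c1 had 0 counts in all 9.

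**Figure D2:**
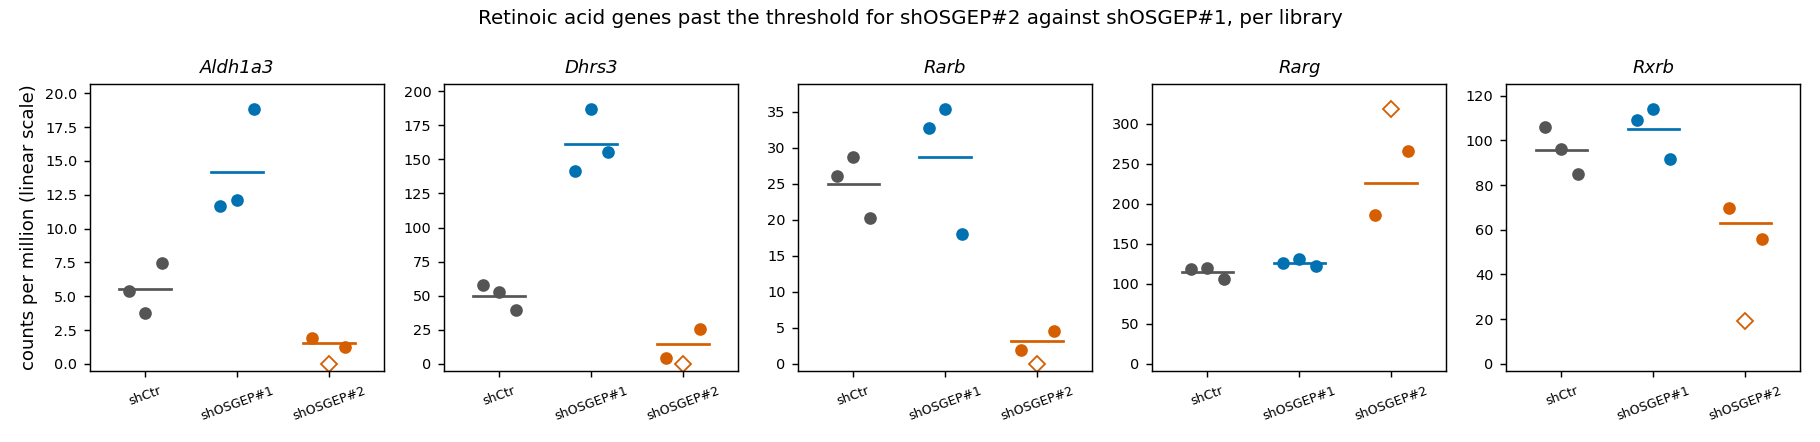
Level of Aldh1a3, Dhrs3, Rarb, Rarg and Rxrb, the 5 retinoic acid genes past the threshold for shOSGEP#2 against shOSGEP#1, in CPM on a linear axis from 0, by shRNA group. Filled circles are libraries of the fit, lines their group means, and open diamonds the shallow replicate 2 of shOSGEP#2.

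Of the other CCN genes, which encode secreted matrix-associated proteins like Ccn4, 2 of 5 were tested and neither Ccn1 nor Ccn2 passed between the shRNAs. Ccn1 was at 11.7, 12.0 and 14.8 CPM with shCtr, at 34.8, 63.3 and 63.7 CPM with shOSGEP#1 and at 94.9 and 67.1 CPM with shOSGEP#2. It was above shCtr in every library of both shRNAs, whereas Ccn4 was above it with shOSGEP#2 only, and the mean of both shRNAs was 2.31 ± 0.24 (edgeR adjusted p = 0.000321) with a difference between them of 0.51 ± 0.27 (edgeR adjusted p = 0.196). Ccn2 was at 0.421, 0.817 and 2.10 CPM with shCtr, at 4.80, 8.98 and 15.3 CPM with shOSGEP#1 and at 3.69 CPM in replicates 1 and 3 of shOSGEP#2, with a difference between the shRNAs of -1.47 ± 0.66 (edgeR adjusted p = 0.129). For the WNT target genes, 9 of 18 were tested, with a median of 0.09. The 1 gene that passed was Kremen1, a receptor for DKK proteins, at 27.3, 27.0 and 27.8 CPM with shCtr, at 27.9, 34.8 and 20.3 CPM with shOSGEP#1 and at 73.3 and 72.3 CPM with shOSGEP#2. It rose by 1.31 ± 0.21 between the shRNAs (edgeR adjusted p = 0.00141), and passed without each shCtr or shOSGEP#1 library in turn. Axin2, a standard reporter gene of WNT and β-catenin signalling, was at 14.5 ± 1.44 CPM with shCtr (SD, n = 3), 5.24 ± 0.498 CPM with shOSGEP#1 (SD, n = 3) and at 5.11 and 0 CPM in replicates 1 and 3 of shOSGEP#2, with a difference between the shRNAs of -1.03 ± 0.86 (edgeR adjusted p = 0.412).

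Among partners of GPNMB and genes of the MITF and TFE family and their targets, 17 of 19 were tested, 2 were higher and 3 lower with shOSGEP#2 than with shOSGEP#1, and the median was -0.31. Pmel, the melanosomal fibril protein and closest relative of Gpnmb, was at 1105, 1060 and 1404 CPM with shCtr, at 1092, 1357 and 929 CPM with shOSGEP#1 and at 213 and 401 CPM with shOSGEP#2. The shCtr and shOSGEP#1 libraries overlapped and the shOSGEP#2 libraries lay below both, so Pmel shared the low level of Gpnmb with shOSGEP#2 and not its high level with shOSGEP#1. Pmel fell by 1.97 ± 0.27 between the shRNAs (edgeR adjusted p = 0.000685). Ctsd, a lysosomal protease, had means of 839 ± 143 CPM with shCtr (SD, n = 3), 1186 ± 205 CPM with shOSGEP#1 (SD, n = 3) and 432 ± 77.1 CPM with shOSGEP#2 (SD, n = 2), and fell by 1.53 ± 0.22 (edgeR adjusted p = 0.000806). Fnip2, a partner of folliculin, fell by 0.94 ± 0.15 (edgeR adjusted p = 0.00137). Both Ctsd and Fnip2 missed the threshold without shOSGEP#2 replicate 3. Of the surface proteins that bind GPNMB, Itga5 was higher by 1.54 ± 0.20 (edgeR adjusted p = 0.000525) and Sdc4 by 1.23 ± 0.19 (edgeR adjusted p = 0.00103). Cd44, at -0.33 ± 0.24 (edgeR adjusted p = 0.343), and Itgb1, at -0.18 ± 0.24 (edgeR adjusted p = 0.622), did not pass. Mitf itself was at 297, 357 and 784 CPM with shCtr, at 401, 400 and 448 CPM with shOSGEP#1 and at 168 and 216 CPM with shOSGEP#2, with a difference of -1.20 ± 0.35 (edgeR adjusted p = 0.0307). Tfeb and Tfe3 differed by 0.31 ± 0.23 (edgeR adjusted p = 0.350) and 0.13 ± 0.18 (edgeR adjusted p = 0.626).

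The label of a melanoma line held in these libraries. All 7 melanocyte markers (Pmel, Mlana, Tyr, Tyrp1, Dct, Mitf and Sox10) were tested, with a median of -1.24 over the 7. Of them, 4 were lower with shOSGEP#2 than with shOSGEP#1, and these passed without each shCtr or shOSGEP#1 library in turn. Dct, a melanin synthesis enzyme, was at 1438, 1242 and 1480 CPM with shCtr, at 1621, 2060 and 1806 CPM with shOSGEP#1 and at 363 and 380 CPM with shOSGEP#2, and fell by 2.38 ± 0.18 (edgeR adjusted p = 4.77e-05). Mlana fell by 1.46 ± 0.21 (edgeR adjusted p = 0.000741) and Sox10, a neural crest transcription factor, by 1.04 ± 0.16 (edgeR adjusted p = 0.00101). Of 4 fibroblast markers, 3 were tested and Col1a1 was higher with shOSGEP#2, by 2.66 ± 0.57 (edgeR adjusted p = 0.0075). Among the fits without 1 shCtr or shOSGEP#1 library, this call was kept only without shCtr replicate 3, and with a replicate block it was lost. Col1a1 was at 1.73 without shOSGEP#2 replicate 3 and at 3.23 without shOSGEP#2 replicate 1. The summed level of the fibroblast markers was 3.20, 4.57 and 2.92 CPM with shCtr, 3.21, 2.67 and 5.18 CPM with shOSGEP#1 and 9.50 and 20.99 CPM in replicates 1 and 3 of shOSGEP#2. Col1a1 was the most abundant of them there, at 4.99 and 14.8 CPM, and made up the whole sum of 68.5 CPM (39 counts) in the shallow library. In replicates 1 and 3 of shOSGEP#2, Pdgfra was at 4.44 and 0.939 CPM, and Col3a1 at 0.0786 and 5.30 CPM. In the other libraries of the fit Pdgfra was at 0.521 to 1.95 CPM and Col3a1 at 0.0996 to 1.43 CPM. Neither passed between the shRNAs (edgeR adjusted p = 0.431 and 0.470). Lum had 0 counts in all 9 libraries. Of the immune, endothelial and keratinocyte markers, Krt5 had 0 counts throughout, Ptprc reached at most 0.652 CPM, and Cd3e had counts only in shOSGEP#2 replicate 3, at 1.68 CPM. Pecam1 reached 1.82 CPM, in shOSGEP#1 replicate 3, Cdh5 0.335 CPM, in shCtr replicate 3, and Krt14 0.116 CPM, in shOSGEP#1 replicate 1. Cd68 reached 4.69 CPM, in shCtr replicate 1. Lyz2 reached 3.15 CPM, with means of 2.56 CPM with shOSGEP#1 and 0.393 CPM with shOSGEP#2, and differed by -2.66 ± 1.07 (edgeR adjusted p = 0.0946). The part of these markers in the differences of the 5 genes was not tested.

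Of the Polycomb group genes around Scml2, 29 of 32 were tested, 2 were higher and 3 lower with shOSGEP#2 than with shOSGEP#1, with a median of -0.12. Scmh1, a relative of Scml2, was at 55.5, 57.6 and 46.4 CPM with shCtr, at 24.9, 23.5 and 14.2 CPM with shOSGEP#1 and at 52.2 and 46.6 CPM with shOSGEP#2. It was low with shOSGEP#1 and overlapped shCtr with shOSGEP#2, and the difference was 1.16 ± 0.23 (edgeR adjusted p = 0.00492). Scml4 had 283 counts over the shOSGEP#1 libraries and 3 over those of shOSGEP#2 in the fit, a depth-corrected ratio of 0.0303 (95% exact interval 0.00622 to 0.0895, edgeR adjusted p = 0.00336), beside 1.86 to 4.47 CPM with shCtr. On the log2 scale it was at -5.18 ± 0.97 in the fit, and at -9.56 without shOSGEP#2 replicate 1, the library that held all 3 counts. Without shOSGEP#2 replicate 3 it was at -4.44. Both of these fits leave 1 library in that group, so only sizes are given for them. Scml2 was thus high, Scmh1 at the shCtr level and Scml4 low with shOSGEP#2. Cbx6, a chromobox subunit of Polycomb complexes, was higher by 0.78 ± 0.17 (edgeR adjusted p = 0.00862). Rnf2, the ubiquitin ligase of these complexes, was at -0.95 ± 0.21 (edgeR adjusted p = 0.00827) and Phc2, a polyhomeotic subunit, at -0.67 ± 0.15 (edgeR adjusted p = 0.00858). Both Rnf2 and Phc2 missed the threshold with a replicate block. None of the 5 passed without each library in turn, and Rnf2 missed the threshold whichever of the 8 was left out.

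Of the genes of the STING pathway and its regulators, 22 of 23 were tested, 1 was higher and 3 lower with shOSGEP#2 than with shOSGEP#1, and the median was -0.01. Cgas, which makes the ligand of STING, was at 13.0 ± 1.68 CPM with shCtr (SD, n = 3), 12.7 ± 2.07 CPM with shOSGEP#1 (SD, n = 3) and 12.0 ± 2.06 CPM with shOSGEP#2 (SD, n = 2), groups that overlapped. Tbk1 and Irf3, which act after STING, differed by -0.06 ± 0.21 (edgeR adjusted p = 0.867) and 0.04 ± 0.18 (edgeR adjusted p = 0.898). Rnf26, a ubiquitin ligase that acts on STING, was at 48.0, 57.8 and 64.8 CPM with shCtr, at 37.1, 37.1 and 20.2 CPM with shOSGEP#1 and at 96.7 and 79.0 CPM with shOSGEP#2, and was higher by 1.40 ± 0.26 (edgeR adjusted p = 0.00302). Its groups did not overlap, and their means stood in the opposite order to those of Tmem173. Cxcl10, an interferon-stimulated chemokine gene, was at 13.0, 17.4 and 17.1 CPM with shCtr, at 47.8, 61.2 and 123 CPM with shOSGEP#1 and at 13.5 and 27.5 CPM with shOSGEP#2, a difference of -2.02 ± 0.41 (edgeR adjusted p = 0.00572). It was high with shOSGEP#1 in all replicates and overlapped shCtr with shOSGEP#2. Insig1 was at -1.41 ± 0.32 (edgeR adjusted p = 0.00924) and Smpdl3a, which degrades the STING ligand, at -1.31 ± 0.26 (edgeR adjusted p = 0.00449). None of these 4 passed without each library in turn, and without shOSGEP#2 replicate 1 none of the list passed by edgeR.

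The 24 listed genes that passed between the shRNAs in the fit of 8 libraries were looked up in the shallow replicate 2 of shOSGEP#2. It had 0 counts for 12 of them, 9 called lower and 3 called higher (Kremen1, Itga5 and Scmh1). The other 12 had counts there, and 10 of these lay on the called side of every shOSGEP#1 library. The share of all tested genes that did so was not computed. Tested genes within a factor of 1.5 of 400 CPM in replicates 1 and 3 had a median of 0.523 times the count expected there. Near 33.6 CPM that median was 0. Many genes thus read low in this library, and genes at 0 are left out of the 10. The count of 10 therefore cannot show whether the calls repeat. Sox10, called lower, was at 1090 CPM (620 counts) there, above every other library, and Sdc4, called higher, was at 80.8 CPM (46 counts), within the shOSGEP#1 range. With all 9 libraries in the fit Kremen1 was at 0.77, Itga5 at 0.99 and Scmh1 at 0.63, and none of them passed by edgeR. All of these calls rest on replicates 1 and 3 of shOSGEP#2, and none is carried over to replicate 2.

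For the mean of both shRNAs against shCtr, 5.04% of all tested genes were higher and 4.27% lower, with a median of -0.04. Of the retinoic acid genes 1 was lower, Rarb at -1.46 ± 0.28 (edgeR adjusted p = 0.0048), and of the CCN genes 1 was higher, Ccn1. Rarb was at 0.19 with shOSGEP#1 and -3.10 with shOSGEP#2, so that its mean describes neither shRNA. Of the genes around Gpnmb 3 were higher (Sdc4, Itga5 and Itgb1) and 1 lower (Pmel). Itga5 was at -0.0057 with shOSGEP#1 and 1.53 with shOSGEP#2. Of the Polycomb genes 1 was higher (Bcor) and 6 were lower (Scml4, L3mbtl2, L3mbtl3, Bmi1, Pcgf3 and Usp7). Scml4 was at -0.25 with shOSGEP#1 and -5.42 with shOSGEP#2. Ccn1 and L3mbtl2 passed without each shCtr or shOSGEP#1 library in turn, and each of the others named so far missed the threshold without shCtr replicate 2. Each of these also missed it without at least 1 other library, Bcor, Itga5 and Scml4 in 7 of the 8 fits that leave out 1 library, Itgb1 and L3mbtl3 in 6, Usp7 in 5, Rarb and Bmi1 in 4, Pmel in 3, and Sdc4 and Pcgf3 in 2. Of the melanocyte markers 3 were lower (Pmel, Tyr and Dct). Tyr passed without each shCtr or shOSGEP#1 library in turn, and Dct missed the threshold without shCtr replicate 1 (at -0.78, edgeR adjusted p = 0.0136). Dct was at 0.39 with shOSGEP#1 and -2.00 with shOSGEP#2, and Pmel at -0.09 and -2.06 in the same order. For these genes the mean describes neither shRNA. Scml2, at 0.39 ± 0.31, was not among the genes past the threshold in this contrast. With all 9 libraries in the fit, edgeR called 0 genes in either contrast, with 1325 at an unadjusted p under 0.05 for shOSGEP#2 against shOSGEP#1 and 817 for both against shCtr, and DESeq2 called 412 and 178.

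Levels with shOSGEP#2 rest on 2 libraries of usable depth, and 1 library more or less changes which genes pass. A fit without either of these leaves 1 library in that group, and its spread then comes from the other groups. Passing or missing the threshold in such a fit is given as a description only. RNA not bound to the bait and protein of the 5 genes were not analysed here.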

How the data were processed

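After pull-down of the tagged bait, ribosomal RNA was removed and stranded paired-end libraries were sequenced. The counts used are those deposited by the authors, one integer per gene and library, made with bcl2fastq 2.20, TrimGalore 0.6.7, STAR 2.6.1d and Salmon on GRCm39 and Ensembl release 112. CPM are scaled to a library's total. The test was that of edgeR 4.0.16 in R 4.3.3 (TMM, filterByExpr, quasi-likelihood test, a coefficient per group, Benjamini-Hochberg adjustment over all 12744 tested genes, threshold 0.01) on 8 libraries, without shOSGEP#2 replicate 2. The common dispersion was 0.0692, and 0.420 with that library. Standard errors are the log2 value divided by the square root of F. Simulated data were used to check the fits. DESeq2 1.42.0 was an alternative. The members and lists were chosen with earlier results of these data known. Genes named are the 5 members, Osgep, Ddx58, list genes past the threshold between the shRNAs (at most 6 a list), relatives or close partners of a member, and the 3 genes most correlated with each member, among those with a mean of at least 1 CPM. Those named for both shRNAs against shCtr were chosen after their values were seen. In the Polycomb and STING lists 1 gene each is not reported here and was left out of the list counts and medians. Symbols were matched through GENCODE M21. Figures were drawn with matplotlib 3.10.9 in Python 3.11.15.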

Additional observations from a re-analysis of the deposited data

Results flagged for a closer look

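Between the shRNAs, 10.8% of all 12744 tested genes passed an adjusted p of 0.01. The lists were chosen with earlier results of these data known, and the number tested in each list named here is given above. The test of the difference itself passed for 24 listed genes. As log2 values of shOSGEP#2 minus shOSGEP#1, these were -3.25 for Aldh1a3, -3.57 for Dhrs3, -3.29 for Rarb, 0.75 for Rarg and -0.82 for Rxrb among the retinoic acid genes, and 1.31 for Kremen1 among the WNT targets. In the STING list they were -1.31 for Smpdl3a, 1.40 for Rnf26, -1.41 for Insig1 and -2.02 for Cxcl10. Around Gpnmb they were -1.97 for Pmel, 1.23 for Sdc4, 1.54 for Itga5, -1.53 for Ctsd and -0.94 for Fnip2. In the Polycomb list they were 1.16 for Scmh1, -5.18 for Scml4, -0.67 for Phc2, -0.95 for Rnf2 and 0.78 for Cbx6. Among the markers they were -1.46 for Mlana, -2.38 for Dct, -1.04 for Sox10 and 2.66 for Col1a1.

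Every library of the fit moved one way from shCtr with shOSGEP#1 and the opposite way with shOSGEP#2 for Gpnmb (-2.25), Ccn4 (4.24) and Cyp26b1 (5.12). These genes were chosen by that difference, so it is given as a description with no p-value.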

How the results depend on the processing

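With all 9 libraries edgeR called 0 genes between the shRNAs and 0 for both against shCtr, also with a replicate block. DESeq2 called 2595 and 2365 on 8 libraries and 412 and 178 on all 9, and an adjusted p under 0.05 in edgeR gave 2952 and 2707. With the replicate block on 8 libraries the counts were 1393 and 1341, with Ccn4 at 1.30 and Cyp26b1 at 1.33 for both against shCtr. With it Rarg, Insig1, Phc2, Rnf2 and Col1a1 missed the threshold between the shRNAs, the Polycomb list went from 5 genes called to 3, and Itga5 and Scml4 missed it for both against shCtr. Scaled to library totals, Rxrb, Insig1, Phc2 and Rnf2 missed it between the shRNAs, and the Polycomb list also went from 5 to 3. Replicate numbers were not used as pairs in the main fit, and the correlations below do not decide whether they are pairs. Of 7 pairs of the same number, 4 correlated over 0.1 (0.0236 to 0.315, mean 0.148, against -0.0731 between numbers). Each of these 4 includes an shOSGEP#2 library. The shOSGEP#2 libraries gave mirrored values, 0.315 and -0.315 with shCtr replicate 1, since libraries were centred within their group. A negative mean between numbers follows from that centring, so the contrast of these means does not decide pairing. As a hint from the data, 6 of 8 libraries correlated best with their own number. Leaving out 1 library at a time, the counts ran from 743 (without shOSGEP#2 replicate 3) to 1504 and from 258 (without shCtr replicate 2) to 1351.

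Gpnmb for both against shCtr was reversed with all 9 libraries, at -0.0662 in edgeR, -0.0599 in DESeq2 and -0.0752 with a replicate block, and at -0.00333 without shCtr replicate 2. In these fits of all 9 libraries, in the same order, the difference between the shRNAs was -2.50, -2.55 and -2.56 for Gpnmb, 2.07, 2.10 and 1.89 for Scml2, and -1.04, -1.12 and -1.41 for Tmem173. For both against shCtr, Ccn4 missed the threshold at 1.18 with all 9 libraries, 0.84 weighted by libraries and 1.19 with a replicate block and all 9. Cyp26b1 missed it at 1.40, 0.88 and 1.43, of which only the weighted value was smaller than in the fit of 8 libraries. Both Ccn4 and Cyp26b1 passed in DESeq2 with all 9 libraries. Osgep passed with no filter (-3.10 with shOSGEP#1 and -3.84 with shOSGEP#2), at a threshold of 0.05 (-3.10 and -3.84), and with shOSGEP#2 in DESeq2 (-3.72, and -4.07 with all 9). It had no value under a filter of 10 counts in every library.

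Leaving out 1 library, both against shCtr ran from -0.00333 to 0.16 for Gpnmb, 1.08 to 1.52 for Ccn4, 1.23 to 1.72 for Cyp26b1, 0.16 to 0.56 for Scml2 and -0.18 to -0.08 for Tmem173. The difference between the shRNAs ran from -2.38 to -2.14, 4.08 to 4.39, 4.81 to 5.37, 0.67 to 1.48 and -0.59 to -0.47 in the same order. Osgep ran from -3.77 to -2.79 with shOSGEP#1 and from -7.86 to -2.78 with shOSGEP#2. The fits that combine all 9 libraries with DESeq2 or a replicate block were chosen after seeing the data.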
